A study of Homo sapiens with 6 samples.

Results

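Midkine (MDK), pleiotrophin (PTN) and genes for receptors that bind them were followed in NCI-H460 cells after knockdown of PRMT5. The 8 genes were chosen by name as the heparin-binding cytokines MDK and PTN, the syndecans SDC1, SDC2, SDC3 and SDC4, the endocytic receptor LRP1 and the receptor phosphatase PTPRZ1. They are 8 of the 58825 genes in the deposited tables, and 7 of them passed the filter on low counts and were tested. NCI-H460 is an established human lung cancer cell line, described by the labels as an adenocarcinoma line and generally known as a large cell carcinoma line. Both groups were infected with lentivirus, and the study's methods state that stable knockdown cells were selected with puromycin. The NC-shRNA group (3 libraries) carried a control hairpin, and the PRMT5-shRNA group (3 libraries) a hairpin against PRMT5. The sample titles call the control GFPkd, while the study prints a control shRNA sequence and names no target for it. The labels do not say which of the designed PRMT5 hairpins was sequenced, or whether the cells were 1 clone or a pool.

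Midkine and pleiotrophin form a small family of secreted growth factors that bind heparin. They attach to the sugar chains of cell surface proteoglycans, and they signal through several receptors rather than through a dedicated one. Syndecans carry such heparan sulfate chains on a transmembrane core, LRP1 takes up ligands and transmits signals, and PTPRZ1 is a chondroitin sulfate proteoglycan whose phosphatase activity is blocked when pleiotrophin binds. Midkine is known as an embryonic factor that many tumors produce again, and pleiotrophin and PTPRZ1 are best known in the nervous system and in glioma.

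PRMT5 was at 32.6% of its NC-shRNA level in PRMT5-shRNA cells (edgeR quasi-likelihood test, adjusted p = 0.0063). The total estimated count per library was between 53531257 and 70518401. Of 6 epithelial markers, 4 (the keratins KRT7, KRT8, KRT18 and KRT19) had a mean over 1 FPKM (reads scaled for transcript length and library size), while EPCAM and CDH1 were at or below 0.52 and 0.30 FPKM. The 5 markers of lung adenocarcinoma and alveolar cells, NKX2-1, NAPSA, SFTPA1, SFTPB and SFTPC, summed to 0.02 to 0.13 FPKM in the controls and 0.03 to 0.23 FPKM after knockdown, so these defining markers were at or near 0. Summed epithelial markers were at 343.71 to 361.29 FPKM in the controls and 317.88 to 328.53 FPKM after knockdown. The 7 endothelial markers summed to 1.45 to 1.6 FPKM in the controls and 2.03 to 2.66 FPKM after knockdown, mostly CDH5, while VWF and KDR were at 0 in every control library and at or below 0.20 and 0.06 FPKM after knockdown. These sums did not overlap between the groups, and their part in the members' results was not tested. The 7 fibroblast markers (10.3 to 11.36 and 10.19 to 12.43 FPKM) and the 6 blood cell markers (5.77 to 7.81 and 5.36 to 6.16 FPKM) overlapped, with PDGFRA, COL1A2 and CD3E at 0 in every library. The libraries of a group are separate samples in the labels, and the study calls them biological replicates. The edgeR p-values set the difference between the groups against the spread between these libraries. Whether the libraries of a group came from separate infections is not stated. In bulk RNA, fewer cells with a transcript and less transcript per cell cannot be told apart.

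The cells carried mostly receptor transcript and little ligand transcript. On the FPKM scale, which allows levels of different genes to be compared per length, the order in NC-shRNA cells was SDC4 (55.1 ± 1.3 FPKM, SD, n = 3), SDC1 (24.3 ± 1.69), SDC2 (17.6 ± 0.431), LRP1 (6.21 ± 0.645), SDC3 (3.71 ± 0.114), MDK (1.48 ± 0.338), PTN (0.107 ± 0.144) and PTPRZ1 (0.00333 ± 0.00577). Each neighbor in this order was separated from the next in all libraries, except PTN and PTPRZ1, whose ranges overlapped. SDC4 was above 97.1% of the genes tested in mean FPKM over the 6 libraries, and MDK was above 50.4%. In PRMT5-shRNA cells the order was the same, but SDC3 (1.88 to 3.77 FPKM) and MDK (2.49 to 2.57 FPKM) no longer separated.

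**Figure D1:**
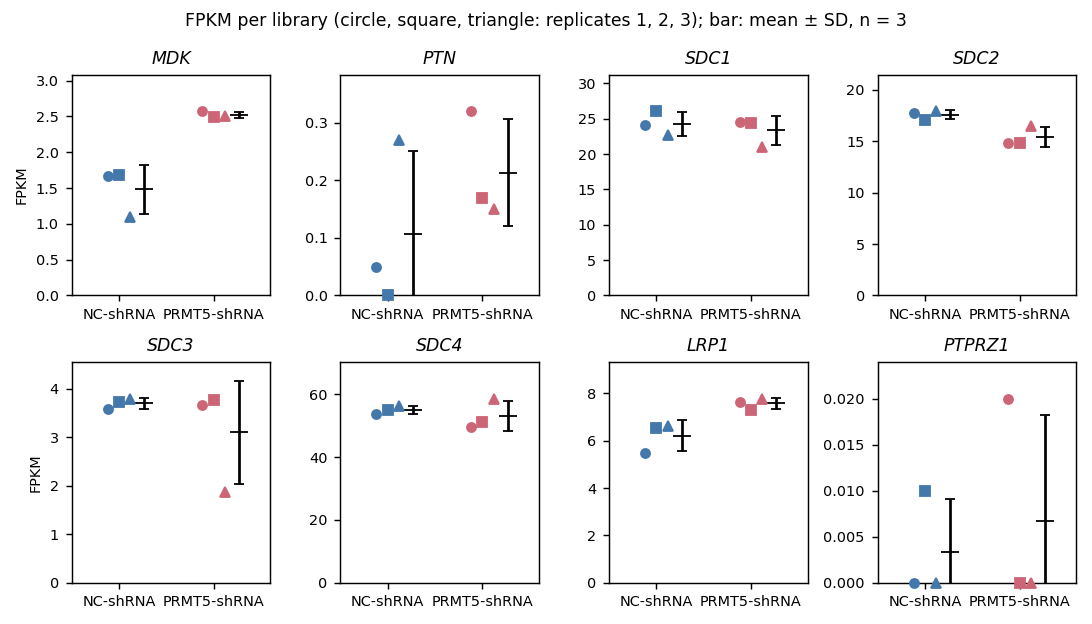
FPKM of each gene in each library, with NC-shRNA libraries in blue and PRMT5-shRNA libraries in red, and the mean ± SD of 3 libraries beside them (bars that would pass below 0 are drawn from 0). Each panel has its own linear axis from 0, and the 2 groups are apart for MDK, SDC2 and LRP1, while SDC3 has a single low library, PRMT5-shRNA replicate 3, at 1.88 FPKM.

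None of the 7 tested genes had an adjusted p below 0.05 by edgeR's quasi-likelihood test, which called 0.069% of all 20295 genes tested (0.0493% higher and 0.0197% lower). At an unadjusted p under 0.05, 3 of the 7 passed, MDK and LRP1 higher and SDC2 lower, against a background of 12.8% of all genes tested. The groups did not overlap in CPM (counts scaled to the TMM-normalized library size) for 4 of them, MDK and LRP1 higher and SDC2 and SDC3 lower, against a background of 21.7%. With so few genes these shares are a description and carry no test. In FPKM 3 did not overlap, since SDC3 overlapped there, against a background of 21.3%. The background split differed between the scales. It was 11% higher and 10.7% lower in CPM, and 14.7% higher and 6.59% lower in FPKM. The median log2 fold change was -0.11 over the 7 tested genes and 0.01 over all genes tested.

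**Figure D2:**
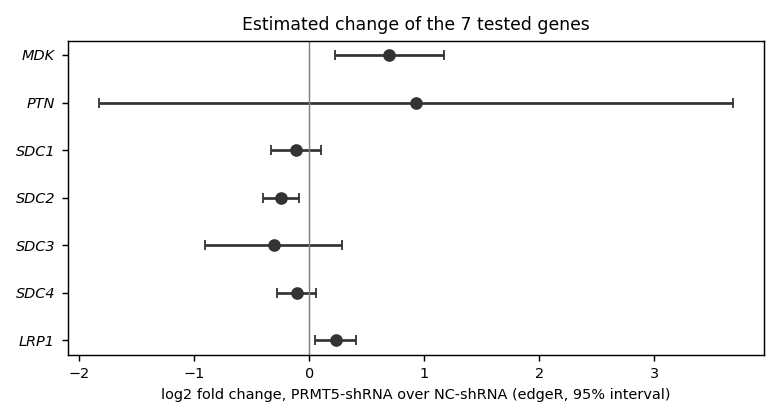
Log2 fold change of PRMT5-shRNA over NC-shRNA for the 7 tested genes, as points with 95% intervals from edgeR's quasi-likelihood fit. The intervals of MDK and LRP1 lie above 0 and that of SDC2 below 0 before adjustment over all genes, and that of PTN runs from -1.83 to 3.68.

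MDK had a larger fitted fold change than any tested receptor, without passing the adjusted threshold. MDK (ENSG00000110492) lies on the plus strand of chromosome 11, from 46380756 to 46383837 of GRCh38, and overlaps no other annotated gene. It had 303, 310 and 176 counts in NC-shRNA replicates 1, 2 and 3, and 353, 444 and 364 in the PRMT5-shRNA replicates. In FPKM these libraries stood at 1.67, 1.68 and 1.09 in NC-shRNA and at 2.57, 2.49 and 2.5 in PRMT5-shRNA. The PRMT5-shRNA libraries were all above the NC-shRNA libraries and close to each other, and NC-shRNA replicate 3 was the lowest of all. The log2 fold change was 0.70 (standard error 0.201, 95% interval 0.22 to 1.17), with an unadjusted p of 0.0106 and an adjusted p of 0.27 by edgeR's quasi-likelihood test. The exact two-sided permutation test over the 6 libraries gave p = 0.10, the smallest that 3 against 3 allow. MDK alone of the 7 passed an unadjusted p under 0.05 together with a fold change over 1.5, against 3.82% of all genes tested (2.53% higher and 1.29% lower). Without NC-shRNA replicate 3 its log2 fold change was 0.50, below that fold threshold. The study chose MDK for a heatmap drawn from these libraries, so its direction here is not independent evidence.

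The other ligand, PTN (ENSG00000105894, minus strand of chromosome 7, 137227341 to 137343865), was barely detected. Counts were 8, 0 and 34 with NC-shRNA, against 34, 23 and 18 with PRMT5-shRNA. The groups overlapped, and NC-shRNA replicate 3 held as many counts as the highest PRMT5-shRNA library. The log2 fold change of 0.93 had a standard error of 1.16 and a 95% interval from -1.83 to 3.68 (adjusted p = 0.78 by edgeR). This interval holds large differences in either direction. Without NC-shRNA replicate 3 the estimate was 2.79 (adjusted p = 0.42 by edgeR), without NC-shRNA replicate 2 it was 0.34, and without PRMT5-shRNA replicate 1 it was 0.54. Low counts in these libraries gathered at 4 (1214 to 1319 genes per library had exactly 4 counts, and 283 to 308 had 5), so counts are not taken as numbers of fragments. In PRMT5-shRNA cells the mean FPKM of MDK was 11.8 times that of PTN.

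The receptor for which pleiotrophin is best known was not detected above a trace. PTPRZ1 (ENSG00000106278, plus strand of chromosome 7, 121873089 to 122062036) had 0, 8 and 0 counts with NC-shRNA, against 12, 4 and 0 with PRMT5-shRNA. It was left out of the test by the filter on low counts. No upper limit is given for its libraries at 0, because a count is not taken as a fragment here. The 4 glial markers GFAP, SOX10, OLIG2 and S100B had summed levels of at most 0.05 FPKM in the controls and 0.02 FPKM after knockdown.

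The fitted fold changes of all 4 syndecans lay below 0, and none passed the adjusted threshold. SDC2 (ENSG00000169439, plus strand of chromosome 8, 96493351 to 96611780), a syndecan typical of mesenchymal cells, stood at 17.72, 17.08 and 17.9 FPKM in NC-shRNA and at 14.87, 14.84 and 16.48 FPKM in PRMT5-shRNA libraries. The groups did not overlap in FPKM or in CPM, with the PRMT5-shRNA libraries below. Its log2 fold change was -0.25 (standard error 0.0654, 95% interval -0.41 to -0.10), or 84.1% of the NC-shRNA level, with an unadjusted p of 0.00666 and an adjusted p of 0.24 by edgeR's quasi-likelihood test. The exact two-sided permutation test gave p = 0.10.

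SDC3 (ENSG00000162512, minus strand of chromosome 1, 30869467 to 30908761), a syndecan prominent in the nervous system, rested on a single library. Its CPM was 30.9, 31.5 and 31.4 in NC-shRNA and 29.6, 30.7 and 15.1 in PRMT5-shRNA replicates 1, 2 and 3. The first 2 PRMT5-shRNA libraries were thus within 2 CPM of the controls, and replicate 3 was far below them. The log2 fold change was -0.31 (standard error 0.251, 95% interval -0.91 to 0.28, adjusted p = 0.65 by edgeR), and -0.05 (adjusted p = 0.88 by edgeR) without PRMT5-shRNA replicate 3. Without PRMT5-shRNA replicate 2 it was -0.48.

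SDC4 (ENSG00000124145, minus strand of chromosome 20, 45325288 to 45348424), a widely expressed syndecan of focal adhesions, had 53.83, 55.04 and 56.42 FPKM in NC-shRNA and 49.71, 51.15 and 58.62 FPKM in PRMT5-shRNA libraries. PRMT5-shRNA replicate 3 was the highest of the 6 and the other two were the lowest, so the groups overlapped. Its log2 fold change was -0.11 with a 95% interval from -0.28 to 0.06 (adjusted p = 0.55 by edgeR). It moved to -0.18 (adjusted p = 0.47 by edgeR) without PRMT5-shRNA replicate 3 and to -0.07 without PRMT5-shRNA replicate 1. AL021578.1 is annotated over SDC4 in the same orientation, and their reads may be split by the counting. SDC1 (ENSG00000115884, minus strand of chromosome 2, 20200797 to 20225433), the main syndecan of epithelial cells, had 24.05, 26.04 and 22.68 FPKM in NC-shRNA and 24.57, 24.41 and 21.02 FPKM in PRMT5-shRNA libraries. The groups overlapped, and the log2 fold change of -0.12 had a 95% interval from -0.34 to 0.10 (adjusted p = 0.65 by edgeR). The estimate was -0.04 without PRMT5-shRNA replicate 3, -0.06 without NC-shRNA replicate 2 and -0.18 without NC-shRNA replicate 3. With all libraries, the intervals of SDC1 and SDC4 leave out a halving or a doubling before adjustment, but small differences in either direction remain within them.

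SDC4 supplied more than every other syndecan in each library. Its share of the summed FPKM of the 4 syndecans was 54.01% to 56.0% in the controls and 53.6% to 59.8% after knockdown. SDC1 followed with 22.5% to 25.6% and 21.4% to 26.5%. SDC2 held 16.8% to 17.9% in the controls and 15.8% to 16.8% after knockdown, and SDC3 held 3.61% to 3.77% and 1.92% to 4.003%. The shares of the groups overlapped for each syndecan. The summed syndecan FPKM was 101 ± 1.37 (SD, n = 3) with NC-shRNA and 94.99 ± 2.69 (SD, n = 3) with PRMT5-shRNA, 5.60% lower by the means, with ranges of 99.18 to 101.9 and 92.81 to 98.0 that did not overlap. It is given as a description with no test.

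**Figure D3:**
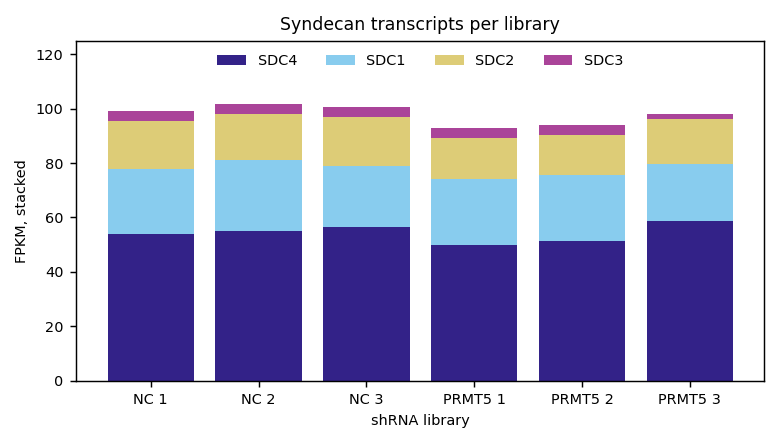
Stacked FPKM of the 4 syndecans in each library, NC-shRNA on the left and PRMT5-shRNA on the right. SDC4 fills over 53% of each bar, the 3 PRMT5-shRNA bars end between 92.81 and 98.0 FPKM, below the NC-shRNA bars, and the SDC3 segment is thinnest in PRMT5-shRNA replicate 3.

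LRP1, a large endocytic receptor that also binds midkine, was modestly higher in all PRMT5-shRNA libraries. The gene (ENSG00000123384) lies on the plus strand of chromosome 12, from 57128493 to 57213351. It had 5.47, 6.54 and 6.63 FPKM in NC-shRNA and 7.65, 7.32 and 7.78 FPKM in PRMT5-shRNA libraries, with NC-shRNA replicate 1 the lowest. The log2 fold change was 0.23 (standard error 0.0742, 95% interval 0.05 to 0.40), or 117% of the NC-shRNA level, with an unadjusted p of 0.0182 and an adjusted p of 0.30 by edgeR's quasi-likelihood test. Leaving out PRMT5-shRNA replicate 1 or 3 gave an unadjusted p of 0.0511 or 0.0518 by edgeR. The exact two-sided permutation test gave p = 0.10. LRP1 overlaps STAT6 and LRP1-AS on the other strand. LRP1-AS was listed at 0 FPKM in every library, and STAT6 was between 13.67 and 15.46 FPKM. The longest annotated LRP1 transcript has 14897 bases, and fold changes in this comparison moved with transcript length. Over the 667 tested genes with a longest transcript of 10 kb or more the median log2 fold change was 0.12, and 13.9% of them were higher at an unadjusted p under 0.05, against 6.54% of all genes tested. For the 6444 genes under 2 kb, which include MDK (1339 bases), the median was -0.05 and 2.61% were higher. The part of length in the LRP1 result was not tested.

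Genes around the members were described from lists of textbook partners. Where the groups of a list gene are said not to overlap, the background is 21.7% of all genes tested in CPM and 21.3% in FPKM. Most list genes were named for a small unadjusted p, so non-overlap adds no separate support. Of 17 other receptors and binding partners of midkine and pleiotrophin, 16 could be tested, with a median of 0.16 on the log2 scale and 0 called by edgeR at the adjusted threshold. At an unadjusted p under 0.05, 1 was higher and 2 were lower, against 6.54% higher and 6.29% lower among all genes tested. PTPRG, the phosphatase most closely related to PTPRZ1, had 2.20, 2.64 and 3.07 FPKM in NC-shRNA and 3.52, 3.23 and 4.16 FPKM in PRMT5-shRNA libraries (log2 fold change 0.41, adjusted p = 0.30 by edgeR), with no overlap. NCL, which encodes nucleolin, a nucleolar protein that binds midkine at the cell surface, was the most abundant of these partners at 129 ± 4.73 FPKM (SD, n = 3) in the controls and 113 ± 5.7 FPKM (SD, n = 3) after knockdown. Its log2 fold change was -0.25 (adjusted p = 0.22 by edgeR). The log2 fold change of CSPG5, a brain proteoglycan, was -0.57 (adjusted p = 0.36 by edgeR), and its groups overlapped. ALK, a receptor kinase linked to both ligands, was listed at 0 FPKM in every library and was not tested.

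Glypicans are the other main family of cell surface heparan sulfate proteoglycans. The 5 listed were all tested, and 1, GPC6, passed an unadjusted p under 0.05 on the higher side, against 6.54% of all genes tested. It had 0.92, 1.21 and 1.27 FPKM in NC-shRNA and 2.09, 1.82 and 2.31 FPKM in PRMT5-shRNA libraries, which did not overlap (log2 fold change 0.81, standard error 0.151, adjusted p = 0.17 by edgeR). GPC1 was the most abundant at 13.8 ± 1.03 FPKM (SD, n = 3) in the controls and 13.7 ± 0.781 FPKM (SD, n = 3) after knockdown.

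None of the enzymes that build the sugar chains had an adjusted p below 0.05 by edgeR. For the linker and heparan sulfate, 24 of 30 genes could be tested. Their median log2 fold change was 0.04, and 2 were higher and 2 lower at an unadjusted p under 0.05, numbers close to the shares among all genes tested (6.54% higher and 6.29% lower). XYLT1, a xylosyltransferase that starts the chains on the core protein, had 2.31, 2.62 and 2.67 FPKM in NC-shRNA and 3.84, 4.07 and 3.72 FPKM in PRMT5-shRNA libraries. Its groups were well apart, at 0.55 on the log2 scale (standard error 0.0792, adjusted p = 0.10 by edgeR). The log2 fold change of HS3ST3A1, a heparan sulfate sulfotransferase, was 0.40 (adjusted p = 0.34 by edgeR). FAM20B, a kinase that phosphorylates the linker xylose, stood at -0.17 (adjusted p = 0.34 by edgeR), and the sulfotransferase HS6ST2 at -0.26 (adjusted p = 0.39 by edgeR). For chondroitin and dermatan sulfate all 16 genes were tested, with a median of 0.01, and 1 was higher and 2 lower at an unadjusted p under 0.05, against the same 6.54% and 6.29%. These were CSGALNACT2, which acts in chondroitin chain initiation (0.35, adjusted p = 0.25 by edgeR), the sulfotransferase CHST7 (-0.39, adjusted p = 0.29 by edgeR) and CHPF2, a chondroitin polymerizing factor (-0.20, adjusted p = 0.36 by edgeR).

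Of 12 cytoplasmic partners and sheddases of syndecans, 3 were higher and 0 lower at an unadjusted p under 0.05, against 6.54% higher and 6.29% lower of all genes tested, and 0 had an adjusted p below 0.05 by edgeR. PRKCA, a protein kinase C that binds the tail of syndecan-4, had 5.59, 5.87 and 6.05 FPKM in NC-shRNA and 7.70, 7.09 and 7.34 FPKM in PRMT5-shRNA libraries (log2 fold change 0.28, standard error 0.058, adjusted p = 0.19 by edgeR). MMP14, a membrane-bound metalloprotease that cleaves syndecan-1, rested on 14, 24 and 7 counts in NC-shRNA and 45, 36 and 54 counts in PRMT5-shRNA libraries (log2 fold change 1.75, adjusted p = 0.27 by edgeR).

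Of 16 genes for the LRP1 chaperone, ligands and endocytic relatives, 2 were higher and 1 lower at an unadjusted p under 0.05, with a median log2 fold change of 0.10. Among all genes tested 6.54% were higher and 6.29% lower by that rule. PLAU, the urokinase protease, which LRP1 helps to clear, had 0.57, 0.92 and 0.89 FPKM in the controls against 1.32, 1.57 and 1.64 FPKM after knockdown (log2 fold change 0.87, adjusted p = 0.22 by edgeR). VLDLR, a lipoprotein receptor of the same family as LRP1, had 1.03, 1.18 and 1.38 FPKM in the controls against 1.39, 1.55 and 1.91 FPKM after knockdown (log2 fold change 0.38, adjusted p = 0.38 by edgeR), and its groups overlapped in CPM. CALR, which encodes calreticulin, a chaperone and LRP1 partner, had 404.75, 368.68 and 303.92 FPKM in NC-shRNA and 269.01, 294.23 and 278.47 FPKM in PRMT5-shRNA libraries (log2 fold change -0.42, adjusted p = 0.26 by edgeR). The groups did not overlap in CPM for PLAU and CALR. Of the 16 genes in this list, 3 did not overlap on the higher side and 3 on the lower side. The background was 21.7% of all genes tested. Of 8 genes for PTPRZ1 substrates and signalling, CTNNB1, the gene for the substrate beta-catenin, alone passed an unadjusted p under 0.05 (log2 fold change -0.15, adjusted p = 0.32 by edgeR), and 1 of 8 is near the 12.8% of all genes tested that passed in either direction.

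**Figure D4:**
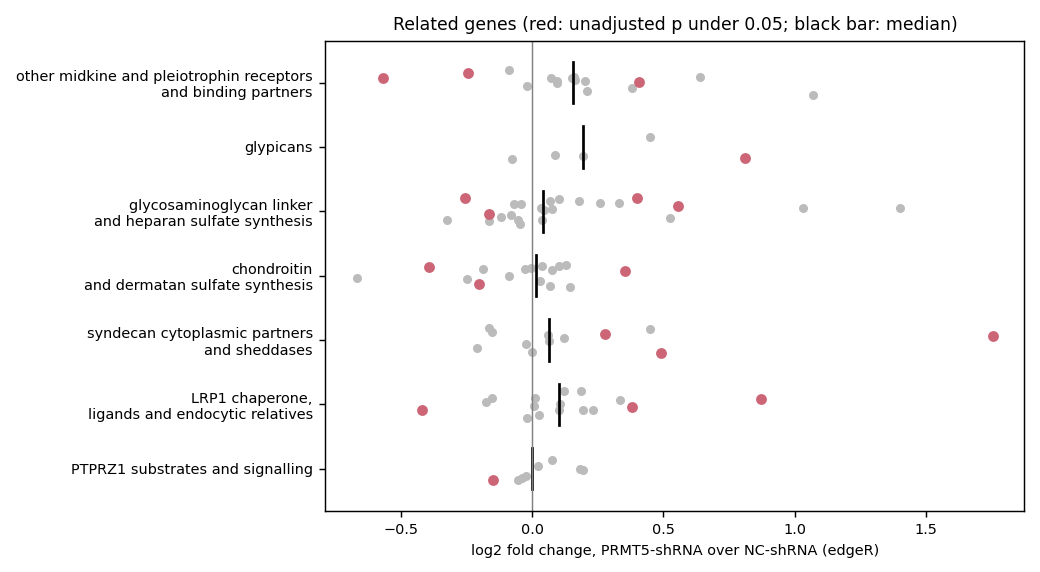
Log2 fold change of PRMT5-shRNA over NC-shRNA for each tested gene of the 7 related lists, with genes at an unadjusted p under 0.05 in red and the list median as a black bar. The medians lie between -0.00068 and 0.19, and no gene had an adjusted p below 0.05 by edgeR.

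The genes whose pattern over the 6 libraries was most like that of MDK were VRK1, RAC3 and PSKH1, among 13442 candidates with a mean log2 CPM over 1. The Pearson correlations of log2 CPM were 0.997, 0.993 and 0.988. All 6 libraries share the 2 groups and their depth, so these values are a description with no test. VRK1 (log2 fold change 0.11), RAC3 (0.21) and PSKH1 (0.13) spanned much smaller differences than MDK (0.70), and none had an adjusted p below 0.05 by edgeR. In each, as in MDK, NC-shRNA replicate 3 was the lowest library.

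**Figure D5:**
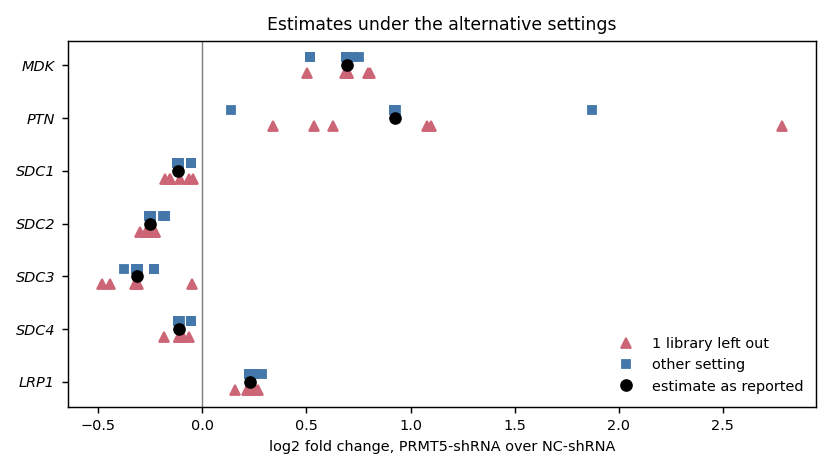
Log2 fold change of the 7 tested genes as reported (black), with 1 library left out (red) and under other normalizations, filters and tests (blue). Each gene keeps its side of 0 in the settings that tested it, MDK stays between 0.50 and 0.80, and SDC3 moves to -0.05 without PRMT5-shRNA replicate 3.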

How the data were processed

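RNA-seq of 3 NC-shRNA and 3 PRMT5-shRNA libraries was analysed. The submitters' processing notes name cutadapt 1.9, HISAT2 2.0.4, StringTie 1.3.4d and GRCh38 (the methods print GRCm38), and the libraries were prepared with a stranded mRNA kit. The strand setting of the counting is not given in the sources used here. The authors deposited estimated counts per gene and library, unnormalized whole numbers that were used as they are, and FPKM values normalized for length and library size. The counts were scaled by TMM, filtered with filterByExpr (20295 of 58825 genes left) and tested with edgeR 4.0.16 (quasi-likelihood, R 4.3.3) and Benjamini-Hochberg adjustment over all genes tested. Standard errors came from the F statistic. DESeq2 1.42.0 and limma 3.58.1 on log2 FPKM were alternatives, as were other size factors, no filter, counts divided by 4, the replicate number as a block and each library left out. Fits were tested on simulated counts. The 8 genes and the lists were chosen with earlier results of these data known. Named list genes are those past an adjusted p of 0.05, plus up to 2 higher and 2 lower with the smallest unadjusted p under 0.05. GPC1 and ALK fall outside this rule and were chosen after their values were seen. For MDK, the 3 genes with the highest Pearson correlation among genes with a mean log2 CPM over 1 were named. Positions are from GENCODE release 29 of GRCh38. Some listed genes are not reported here. CTGF was matched as CCN2 through RefSeq synonyms. No library was treated as a duplicate, since the lowest chi-square per degree of freedom between a pair was 41.1. The total count per library was 53531257 to 70518401.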

Additional observations from a re-analysis of the deposited data

How the results depend on the processing

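Over 15 alternatives the log2 fold change of MDK stayed between 0.50 and 0.80 and its adjusted p between 0.0825 (DESeq2) and 0.49, and leaving out 1 library gave 0.50 to 0.80. SDC2 stayed between -0.30 and -0.18 (adjusted p 0.0867 to 0.44) and LRP1 between 0.16 and 0.29 (adjusted p 0.25 to 0.54). PTN, tested under 12 alternatives, ranged from 0.14 to 2.79. No member passed an adjusted p of 0.05 under any of the 15, and leaving out 1 library gave 0 to 0 members. By the looser rule (unadjusted p under 0.05, fold over 1.5) 1 member, MDK, passed.

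Against 10 higher and 4 lower genes over the whole table, DESeq2 called 298 and 215, limma on log2(FPKM + 1) without filter called 1 higher gene, and leaving out 1 library gave 4 to 16 higher and 3 to 10 lower genes. The cause was not tested. With the replicate number as a block 0 higher and 0 lower genes were called (2382 at an unadjusted p under 0.05), and MDK had 0.72 (adjusted p = 0.38). PRMT5 itself, with a log2 fold change of -1.62, was not called in that fit (adjusted p = 0.14 by edgeR). Libraries sharing a number did not deviate together over all genes tested (correlations 0.035, -0.01 and -0.015), and 2 of 6 libraries correlated best with their own number. Such correlations can miss a shared effect on a subset of genes. They do not settle whether libraries with the same number were handled together. Among the list genes DESeq2 called 4, all higher: GPC6, XYLT1, PRKCA and PLAU. No other setting called a list gene. PTN and PTPRZ1 had the lowest counts of the members, with at most 34 counts in a library.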
